A study of Mus musculus with 8 samples.

Results

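The 10 genes described here were grouped as hypoxia response genes outside glycolysis, which does not mean that low oxygen raises the message of each. They encode no glycolytic enzyme and were taken by symbol from the deposited count table of 56748 genes. They are Hif1a and Epas1, which encode the regulated subunits HIF-1alpha and HIF-2alpha of the hypoxia-inducible factors, Egln1 and Egln3, which encode the oxygen-sensing prolyl hydroxylases PHD2 and PHD3, the growth factor genes Vegfa and Vegfb, and Adm, Ndrg1, Ankrd37 and Kdm3a. Each of the 10 symbols had 1 row, and all 10 were among the 16002 genes that passed the filter on low counts and were tested.

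Whole hearts of male and female C56BL mice, 3 to 4 months old per the labels, were collected 56 days after transverse aortic constriction (TAC), an operation that narrows the aorta and so raises the pressure against which the heart pumps. CRE hearts carried a Cre recombinase under the promoter of alpha myosin heavy chain, which is active in cardiomyocytes. CS7KO hearts had Smad7, an inhibitory Smad of TGF-beta signalling, removed in cardiomyocytes by that same Cre, so other cells of these hearts keep the gene and both groups had the Cre and the surgery. There were 4 libraries in each group, CRE 1, 2, 3 and 5 and CS7KO 1 to 4, of which CRE 1, CRE 2, CS7KO 1 and CS7KO 2 were labelled male and the rest female. Unoperated hearts were not analysed here, so the values below compare genotypes under constriction and say nothing of the effect of constriction itself.

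When oxygen is plentiful, the prolyl hydroxylases mark the HIF alpha subunits for destruction through the von Hippel-Lindau protein. When oxygen is low the subunits escape, pair with the partner Arnt and bind DNA at a short core, ACGTG or GCGTG, near their target genes. The alpha subunits are therefore controlled mainly as proteins, and the messages of targets such as Egln3, Vegfa, Adm, Ankrd37, Kdm3a and Ndrg1 are the usual readout. In the heart, HIF-2alpha is known for its expression in endothelial cells, and HIF-driven VEGF-A for linking the muscle to its capillaries.

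Total counts ran from 16476420 to 40181492, and mitochondrially encoded genes took 15.04% to 69.8% of the counts in CRE and 20.21% to 24.95% in CS7KO (means 36.6 ± 24.9% and 21.9 ± 2.23%, SD, n = 4 each; exact permutation test, two-sided, p = 0.371). The highest mitochondrial shares were those of CRE 3 (41.1%) and CRE 5 (69.8%), the 2 female CRE libraries, so in this group labelled sex and that share cannot be told apart. All 12 cardiomyocyte markers were detected in every library, with a summed level of 24136 to 68041 CPM (read counts scaled by TMM to a common library size) among CRE and 52693 to 63818 CPM among CS7KO hearts. The targeted gene Smad7 had 17.6, 25.5, 25.2 and 45.4 CPM in the CRE hearts 1, 2, 3 and 5, and CS7KO hearts 1 to 4 had 19.8, 13.3, 27.8 and 12.3 CPM (log2 fold change -0.59, SE 0.34, edgeR adjusted p = 0.509), so the counts over the whole gene did not bear out the genotype labels and did not go against them.

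The promoters of 4 of the genes, picked by their fold changes in these same data, are shown side by side. Egln1, Egln3 and Adm had the highest fold changes of CS7KO over CRE among the 10, and Ankrd37, another HIF target, lay below 0. None of the 4 passed the edgeR test given below. Ankrd37 (log2 -0.54, SE 0.45) turned to 0.10 without CRE 1 and CRE 5. Whether the cores go with the direction was not tested. Each sequence is the RefSeq window on GRCm38.p6, from 250 bases before to 50 bases after the annotated start, 5′ to 3′ on the gene's strand, and capitals mark the HIF core ACGTG or GCGTG on either strand. The windows are chr8:124949205-124949504, minus strand, for Egln1, chr12:54203825-54204124, minus strand, for Egln3, chr7:110627407-110627706, plus strand, for Adm, and chr8:45999801-46000100, minus strand, for Ankrd37.
Egln1: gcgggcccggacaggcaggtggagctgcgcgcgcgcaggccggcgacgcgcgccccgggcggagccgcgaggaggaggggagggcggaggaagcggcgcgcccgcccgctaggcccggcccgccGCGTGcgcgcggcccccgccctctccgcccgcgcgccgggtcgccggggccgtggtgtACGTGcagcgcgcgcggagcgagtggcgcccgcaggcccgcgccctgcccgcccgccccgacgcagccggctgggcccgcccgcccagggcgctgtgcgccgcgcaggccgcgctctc
Egln3: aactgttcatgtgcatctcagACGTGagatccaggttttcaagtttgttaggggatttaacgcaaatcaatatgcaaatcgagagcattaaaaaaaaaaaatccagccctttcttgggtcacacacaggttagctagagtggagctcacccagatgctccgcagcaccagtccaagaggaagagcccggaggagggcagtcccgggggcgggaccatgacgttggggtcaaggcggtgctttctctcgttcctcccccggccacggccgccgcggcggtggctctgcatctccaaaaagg
Adm: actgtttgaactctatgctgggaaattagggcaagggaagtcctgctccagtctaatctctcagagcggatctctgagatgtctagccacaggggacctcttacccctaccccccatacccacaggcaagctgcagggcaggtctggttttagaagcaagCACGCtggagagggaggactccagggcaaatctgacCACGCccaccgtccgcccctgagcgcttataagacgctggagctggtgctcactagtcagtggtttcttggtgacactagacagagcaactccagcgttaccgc
Ankrd37: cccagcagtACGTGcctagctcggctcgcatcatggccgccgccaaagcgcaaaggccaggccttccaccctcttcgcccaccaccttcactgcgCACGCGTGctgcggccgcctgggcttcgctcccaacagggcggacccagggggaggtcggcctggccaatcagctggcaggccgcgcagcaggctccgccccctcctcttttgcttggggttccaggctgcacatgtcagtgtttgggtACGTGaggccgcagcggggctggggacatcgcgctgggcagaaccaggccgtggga

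The Ankrd37 window held ACGTG at 2 places, which begin 241 and 6 bases before the start, and GCGTG on both strands of a single CACGCGTG. Egln1 had 1 match of each core, with ACGTG 68 bases before the start, while Egln3 had a single ACGTG 229 bases before it and Adm 2 matches of GCGTG. Windows were at hand for 8 of the 10 genes, 11 windows in all, and Epas1 and Ndrg1 had none in the table. ACGTG occurred in 5 of these 11 windows and in 19.6% of 32851 mouse promoter windows of the same length, and either core occurred in 8 of the 11 and in 43.8% of all. An ACGTG that follows a C reads as the same core on both strands, as in Hif1a, where 3 matches lie in 2 places. The matches are descriptions of the letters, and whether a HIF protein binds there was not measured.

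In the comparison of CS7KO with CRE hearts none of the 10 genes passed edgeR's quasi-likelihood test at an adjusted p under 0.05, where 6 of the 16002 tested genes did (0.0375%). An unadjusted p under 0.05 was reached by 4 of the 10, namely Egln1, Egln3 and Adm, which were higher in CS7KO, and Epas1, which was lower, against 12.6% of all tested genes. DESeq2 called 2 of the 10, Egln1 and Egln3, at an adjusted p under 0.05, against 4.1% of the genes it tested. Of the 10 genes 7 lay higher and 3 lower in CS7KO, with a median log2 fold change of 0.46, beside 51.9% of all tested genes higher and a median of 0.029. In the tests on simulated counts with the spread of these libraries, edgeR found 40 of 100 genes given a 4-fold difference and 6 of 100 given a 2-fold one, so that differences of the size seen here would often be missed.

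**Figure D1:**
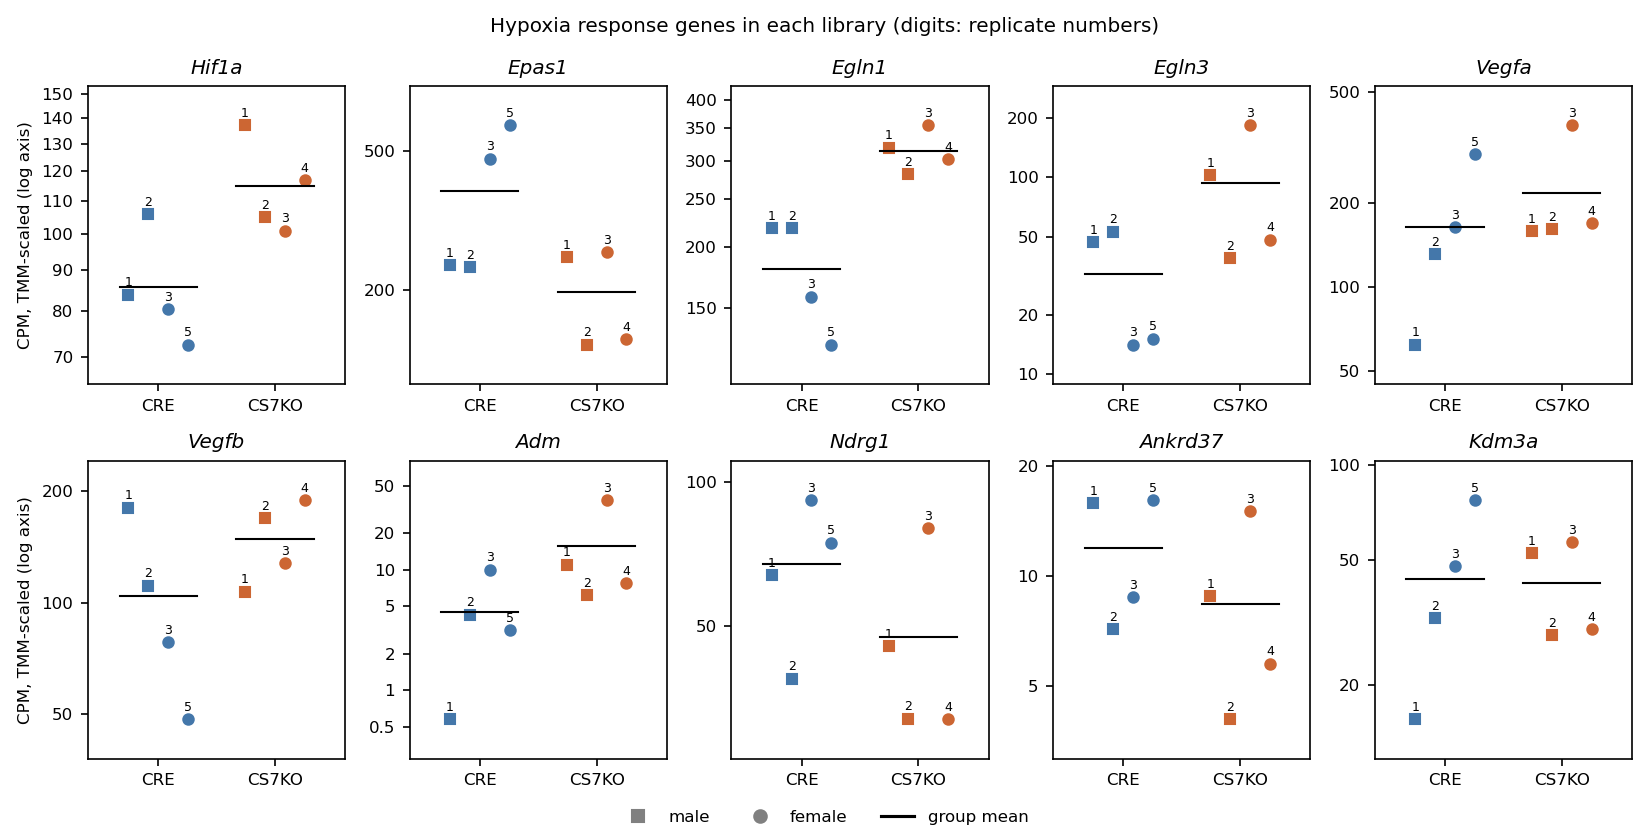
CPM of each of the 10 genes (y axis, logarithmic, scaled by TMM) in the 4 CRE and 4 CS7KO libraries; digits are replicate numbers, squares male and circles female hearts, and bars the group means. Only for Egln1 do all CS7KO libraries (281 to 354 CPM) lie above all CRE libraries (126 to 218 CPM).

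The factor genes came first. Hif1a (ENSMUSG00000021109, on chromosome 12 of the deposited table) had 83.9, 106, 80.4 and 72.6 CPM in CRE hearts 1, 2, 3 and 5, against 137, 105, 101 and 117 CPM in CS7KO hearts 1 to 4. All CS7KO values except CS7KO 2 and 3 were above the highest CRE library, CRE 2. CS7KO exceeded CRE by a log2 fold change of 0.43 that did not pass (SE 0.24, 95% interval -0.10 to 0.96, edgeR adjusted p = 0.487), and leaving out any 1 library moved it only between 0.36 and 0.52. An antisense RNA, Gm15283, overlaps Hif1a at a mean of 1.29 CPM.

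Epas1 (ENSMUSG00000024140, chromosome 17) had 235, 232, 476 and 593 CPM in CRE hearts 1, 2, 3 and 5, against 248, 139, 256 and 144 CPM in CS7KO hearts 1 to 4. CRE 3 and CRE 5 were above every other library, while CRE 1 and CRE 2 lay within the CS7KO range. The log2 fold change was -0.84 (SE 0.37, 95% interval -1.68 to -0.0056, edgeR adjusted p = 0.393), and it was -0.31 without CRE 3 and CRE 5. With the model's term for sex kept and no female CRE heart left, that fit reads genotype from the males alone, here and below. Endothelial markers were also highest in CRE 5 and CRE 3, with a summed level of 1363, 1364, 2478 and 3157 CPM in CRE hearts 1, 2, 3 and 5, against 1673, 1031, 1705 and 896 CPM in CS7KO hearts 1 to 4. None of the 12 was at 0, 11 of 12 were lower in CS7KO, and their part in the Epas1 result was not tested. In whole-heart RNA fewer cells of a type and less RNA per cell cannot be told apart.

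Counts of the factor genes can be compared within each library, free of scaling between libraries but not of the make-up of cells. Counts of Epas1 over those of Hif1a came to 2.80, 2.18, 5.92 and 8.16 in CRE 1, 2, 3 and 5 and to 1.81, 1.33, 2.55 and 1.24 in CS7KO 1 to 4. Epas1 had more counts than Hif1a in every heart, with a mean ratio of 4.76 ± 2.79 in CRE and 1.73 ± 0.599 in CS7KO (SD, n = 4 each), and the groups overlapped only through CS7KO 3 and CRE 2. This ratio was chosen after its values were seen and is given with no test. Summed endothelial markers were also highest in CRE 5 (3157 CPM) and CRE 3 (2478 CPM), and their part in the ratio was not tested.

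**Figure D2:**
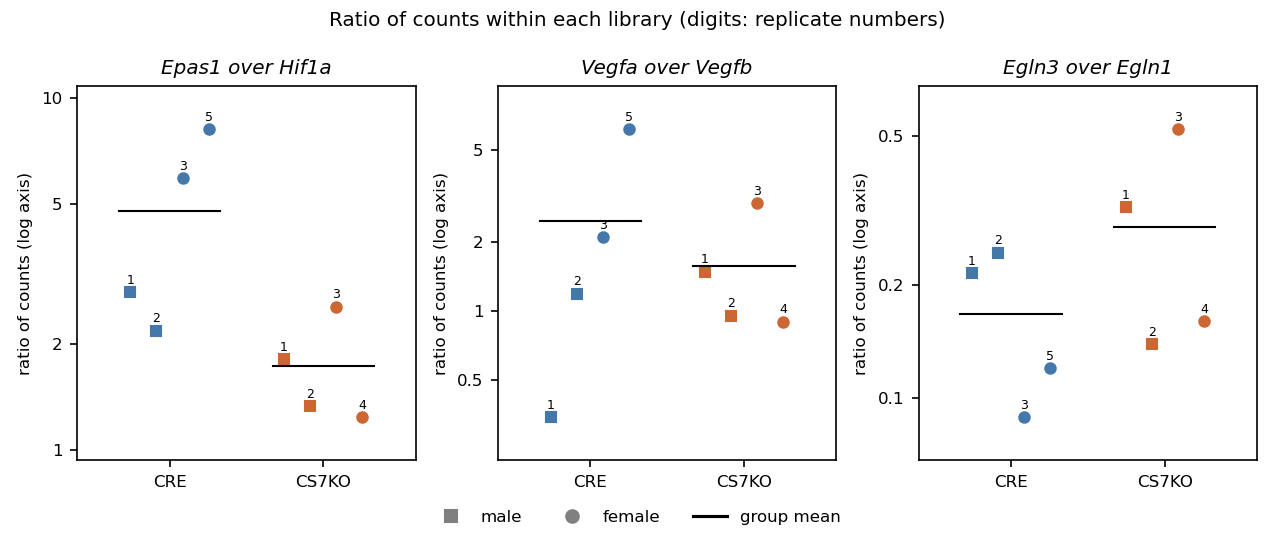
Ratio of counts within each library (y axis, logarithmic) for Epas1 over Hif1a, Vegfa over Vegfb and Egln3 over Egln1, with replicate numbers, sex symbols and group means. The Epas1 ratio is highest in CRE 5 (8.16) and CRE 3 (5.92), and the Vegfa ratio spans 0.346 to 6.18 within CRE alone.

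Of the prolyl hydroxylase genes, Egln1 and Egln3 lay higher in CS7KO without passing edgeR, while the third, Egln2, was at -0.15 (SE 0.27, edgeR adjusted p = 0.862) on the log2 scale and the related P4htm at -0.19 (SE 0.32, adjusted p = 0.856). Egln1 (ENSMUSG00000031987, chromosome 8), the main hydroxylase of HIF alpha in most tissues, had 218, 218, 158 and 126 CPM in CRE hearts 1, 2, 3 and 5, against 319, 281, 354 and 302 CPM in CS7KO hearts 1 to 4. All 4 CS7KO libraries were above all 4 CRE libraries, as for 6.24% of all tested genes, and Egln1 was the 1 of the 10 genes whose groups did not overlap, against 10.3% of tested genes in either direction, so that 1 of 10 is near the background. Group means were 179.8 ± 45.7 and 314 ± 30.9 CPM (SD, n = 4 each), a 1.78-fold difference (log2 0.84, SE 0.29, 95% interval 0.20 to 1.47, edgeR adjusted p = 0.307). DESeq2 called it (adjusted p = 0.0402), and leaving out single libraries kept its log2 fold change between 0.72 and 0.96 with no pass in edgeR. Without CRE 3 and CRE 5, a fit that reads genotype from the males alone, it was 0.41. Cardiomyocyte markers, of which 9 of 12 were higher in CS7KO and none was at 0, were likewise lowest in CRE 5 (24136 CPM summed) and CRE 3 (35003 CPM), against 44487 and 68041 CPM in CRE 2 and CRE 1, and their part in the Egln1 and Egln3 results was not tested.

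Egln3 (ENSMUSG00000035105, chromosome 12), a hydroxylase whose own gene is a strong HIF target, had 46.8, 53.1, 14.1 and 15.1 CPM in CRE hearts 1, 2, 3 and 5, against 103, 39.0, 184 and 48.2 CPM in CS7KO hearts 1 to 4. CS7KO 3 and CS7KO 1 were above every CRE library, CS7KO 2 and CS7KO 4 lay near CRE 1 and CRE 2, and CRE 3 and CRE 5 were the lowest of all. The 3.35-fold difference (log2 1.74, SE 0.64, 95% interval 0.32 to 3.17, edgeR adjusted p = 0.327, DESeq2 adjusted p = 0.0498) leaned on those libraries. Its log2 fold change was 1.02 without CS7KO 3. It was 0.48 without CRE 3 and CRE 5, where the males alone set the difference. Egln3 had fewer counts than Egln1 in every heart, with ratios of 0.089 to 0.244 in CRE and 0.139 to 0.521 in CS7KO.

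**Figure D3:**
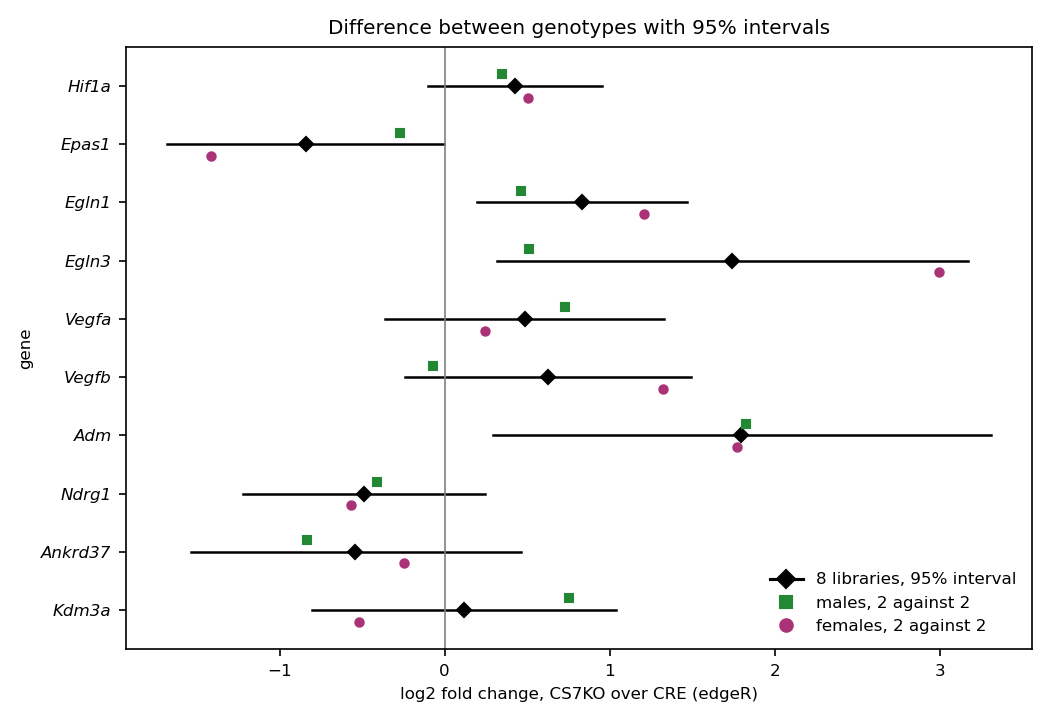
Log2 fold change of CS7KO over CRE (x axis) for each gene (y axis): black diamonds with 95% intervals from the fit of 8 libraries, green squares males alone and purple circles females alone. Egln3 lies at 0.51 in males and 3.00 in females, and Vegfb and Kdm3a change sign between the sexes.

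Both vascular growth factor genes lay higher in CS7KO without passing edgeR, but their levels ran in opposite orders among the CRE hearts. Vegfa (ENSMUSG00000023951, chromosome 17), the HIF target that drives capillary growth, had 62.3, 131, 164 and 299 CPM in CRE hearts 1, 2, 3 and 5, against 159, 161, 379 and 169.7 CPM in CS7KO hearts 1 to 4. CS7KO 3 was the highest library and CRE 1 the lowest, and the other 3 CS7KO hearts, at 159 to 169.7 CPM, lay inside the CRE range (log2 0.49, SE 0.38, 95% interval -0.36 to 1.33, edgeR adjusted p = 0.637). Without CS7KO 3 the log2 fold change was 0.29.

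Vegfb (ENSMUSG00000024962, chromosome 19), a relative that is made by muscle and binds the receptor Flt1, ran nearly opposite to Vegfa among CRE hearts. It had 180.3, 111, 78.3 and 48.4 CPM in CRE hearts 1, 2, 3 and 5, against 107, 169, 128 and 189 CPM in CS7KO hearts 1 to 4. CRE 1 was the highest CRE library for Vegfb and the lowest for Vegfa, and CRE 5 the reverse, so that counts of Vegfa over Vegfb spanned 0.346 to 6.18 within CRE and 0.899 to 2.95 in CS7KO. The log2 fold change of Vegfb was 0.62 (SE 0.39, 95% interval -0.24 to 1.49, edgeR adjusted p = 0.545). It turned to -0.13 without CRE 3 and CRE 5, where the males alone set it. Summed cardiomyocyte markers fell in the same order as Vegfb among CRE hearts 1, 2, 3 and 5 (68041, 44487, 35003 and 24136 CPM). They were 53319, 53195, 52693 and 63818 CPM in CS7KO hearts 1 to 4, and their part in the Vegfb values was not tested.

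Adm (ENSMUSG00000030790, chromosome 7) encodes adrenomedullin, a vasodilator peptide made under hypoxia and strain. It had 0.574, 4.24, 9.99 and 3.15 CPM in CRE hearts 1, 2, 3 and 5, against 11, 6.15, 37.8 and 7.72 CPM in CS7KO hearts 1 to 4, resting on only 13 counts in CRE 1 and 26 in CRE 5. CS7KO 3 was above all other libraries, and the groups overlapped through CRE 3. Means were 4.49 ± 3.98 and 15.7 ± 14.9 CPM (SD, n = 4 each; 3.48-fold, log2 1.80, SE 0.68, 95% interval 0.29 to 3.31, edgeR adjusted p = 0.335, DESeq2 adjusted p = 0.0864). The log2 fold change was 1.23 without CS7KO 3, 2.46 without CRE 2 and 1.16 without CRE 1 and CRE 5.

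The other targets did not share that direction. Ndrg1 (ENSMUSG00000005125, chromosome 15), a stress-responsive gene of the N-myc downstream regulated family, had 63.8, 38.8, 91.5 and 74.6 CPM in CRE hearts 1, 2, 3 and 5, against 45.4, 32.0, 80.0 and 31.9 CPM in CS7KO hearts 1 to 4 (log2 -0.49, SE 0.33, edgeR adjusted p = 0.582). CS7KO 3 stood among the CRE values, and CS7KO 2 and 4 were below all of them. Ankrd37 (ENSMUSG00000050914, chromosome 8), an ankyrin repeat gene used as a marker of HIF activity, had 15.8, 7.15, 8.75 and 16.1 CPM in CRE hearts 1, 2, 3 and 5, against 8.81, 4.06, 15 and 5.76 CPM in CS7KO hearts 1 to 4 (log2 -0.54, SE 0.45, edgeR adjusted p = 0.665). The groups overlapped widely, and without CRE 1 and CRE 5 the value turned to 0.10. On the opposite strand Ankrd37 overlaps Ufsp2 by 57 bases and Lrp2bp by 6405, and Ufsp2, at a mean of 22.8 CPM, was more abundant than Ankrd37 at 10.2 CPM, so without stated strand a part of these reads cannot be assigned.

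Kdm3a (ENSMUSG00000053470, chromosome 6), a histone H3 lysine 9 demethylase that is induced by HIF, had 15.6, 32.6, 47.8 and 77.3 CPM in CRE hearts 1, 2, 3 and 5, against 52.5, 28.9, 56.9 and 30.1 CPM in CS7KO hearts 1 to 4. The CRE libraries spanned the whole CS7KO range, and the log2 fold change was 0.12 (SE 0.41, 95% interval -0.80 to 1.04, edgeR adjusted p = 0.940). Its sign was not stable, at -0.036 with no term for sex, -0.15 without CRE 1 and -0.20 without CS7KO 1. It was 0.71 without CRE 3 and CRE 5, from the males alone.

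Within CS7KO the hearts fell in a repeated order. CS7KO 3 was the highest of its group for 8 of the 10 genes, against 21.8% of tested genes, with Hif1a and Vegfb as the exceptions. CS7KO 1 and CS7KO 3, 1 male and 1 female heart, were the highest pair for 7 of the 10 genes, against 27.5% of tested genes. That pair was also the highest for 11 of 12 endothelial, 9 of 10 fibroblast and 5 of 6 erythroid markers, and for 2 of 12 cardiomyocyte and 2 of 10 macrophage markers. Summed fibroblast levels were 4119, 1962, 3723 and 1964 CPM in CS7KO 1 to 4, against 1538 to 5670.3 CPM in CRE, with 3 of 10 markers higher and 7 lower in CS7KO and none at 0. Summed erythroid levels were 1735, 942, 2932 and 929.6 CPM, against 1006 to 1916 CPM in CRE, with 4 of 6 higher and Slc4a1 at 0 in some library. Macrophage markers summed to 674 to 719 CPM in CS7KO and 531 to 2190.3 CPM in CRE, with all 10 lower and none at 0. Smooth muscle and pericyte markers, 9 of 10 lower, summed to 823 to 1235 CPM in CS7KO and 941 to 1576 CPM in CRE, with Tagln at 0 in a library. Some of these directions differed by sex. Median log2 fold changes within males and within females were -0.927 and 0.306 for macrophage and -0.835 and 0.0439 for fibroblast markers. They were 0.176 and -0.634 for smooth muscle and pericyte markers, and 0.395 and 0.0971 for erythroid markers. The part of these cell types in the order was not tested.

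**Figure D4:**
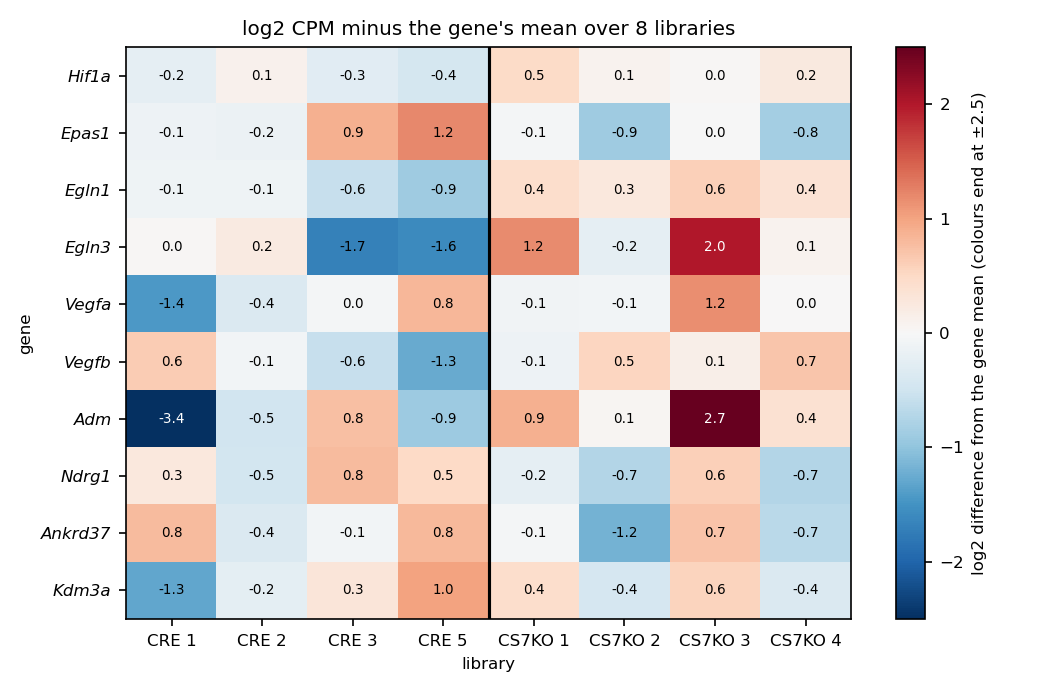
Log2 CPM of each gene (rows) minus its mean over the 8 libraries (columns), in colour and as printed values; colours end at 2.5 on either side. Adm runs from -3.37 in CRE 1 to 2.67 in CS7KO 3, Egln3 from -1.69 in CRE 3 to 2.01 in CS7KO 3, and Epas1 is highest in CRE 5 (1.2).

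Per kilobase of gene length, the levels over all 8 hearts ran in this order. Vegfb was highest at 78.8 ± 31.3 CPM per kb (SD, n = 8), ahead of Egln1 at 68.7 ± 22.3, Epas1 at 51.9 ± 28.6 and Vegfa at 44.5 ± 23.4. Egln3 at 23.7 ± 21.2 and Hif1a at 17.0 ± 3.58 CPM per kb were in the middle, and Ndrg1 at 8.68, Ankrd37 at 6.61, Adm at 6.22 and Kdm3a at 5.20 CPM per kb were lowest. Each gene's range over the hearts overlapped that of the next in the order, so no neighbours were set apart beyond their spread. The order of the means was not the same in CRE and CS7KO, and that was not tested. Among CRE hearts Epas1 had the highest mean (68.6 CPM per kb), ahead of Vegfb (65.0) and then Egln1. That Epas1 mean joined 235 and 232 CPM in CRE 1 and 2 with 476 and 593 CPM in CRE 3 and 5. Among CS7KO hearts Vegfb (92.5 CPM per kb) and Egln1 (87.4) led, and Epas1 (35.2) came after Vegfa (50.7) and level with Egln3. Adm was the lowest in CRE (2.77 CPM per kb, below Ankrd37 at 7.76) and above Ankrd37 in CS7KO (9.68 against 5.45). The steadiest steps were Hif1a above Ndrg1 and Ndrg1 above Ankrd37, each in 7 of 8 hearts, while Egln3 exceeded Hif1a in 4 of 8.

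Within males the median log2 fold change of the 10 genes was 0.41 and within females 0.38, from 2 libraries against 2 in each sex. Over all tested genes these medians were 0.153 and -0.0856. Egln3 was at 0.51 (SE 0.61) in males and 3.00 (SE 0.66) in females, a difference of 2.49 (SE 0.88, edgeR unadjusted p = 0.0192, adjusted p = 0.667). Epas1 was at -0.27 (SE 0.45) and -1.42 (SE 0.46), and Vegfb at -0.073 (SE 0.43) and 1.32 (SE 0.44). No gene of the 10 passed the edgeR test of the difference between sexes, nor did any of the 16002 tested (0%), of which 7.08% had an unadjusted p under 0.05 (1133 genes). Among the 10 genes Egln3 and Vegfb had an unadjusted p under 0.05 in that test (2 of 10). Endothelial markers had a median log2 fold change of -0.20 in males and -1.62 in females, and cardiomyocyte markers one of -0.098 and 1.05, and their part in these values was not tested. Since the test of the difference recovered 0 of 100 genes with a 4-fold simulated difference, the absence of calls says nothing of likeness between the sexes.

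Other parts of the pathway were read from lists of genes. Of 16 partners, regulators and degradation factors of HIF alpha, 8 were higher and 8 lower, with a median log2 fold change of 0.017, no pass in edgeR, 1 unadjusted p under 0.05 and 1 call by DESeq2. Hif1an, the asparagine hydroxylase that blocks the activation domain of HIF alpha, stood at 34.7 ± 16 CPM among CRE and 71.4 ± 14.1 CPM among CS7KO hearts (SD, n = 4 each; log2 1.13, SE 0.29, edgeR adjusted p = 0.280, DESeq2 adjusted p = 0.0163). All its CS7KO libraries were above all CRE libraries, as for 1 of the 16 genes and 6.24% of all tested genes. Hif3a, a HIF alpha gene with inhibitory products, was at 1.49 (SE 0.71) on the log2 scale at a mean of only 1.89 CPM in CRE, Cul2, the scaffold of the von Hippel-Lindau ligase, at 0.48 (SE 0.26) and Elob, an adaptor of that ligase, at -0.65 (SE 0.38).

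Of 40 further HIF targets outside glycolysis 38 were tested, of which 18 were higher and 20 lower (median -0.090) and none passed edgeR. An unadjusted p under 0.05 was reached by 8 (12.6% of all tested genes did so), and DESeq2 called 4 (4.1% of those it tested), of which 3 were higher and 1 lower. Pdgfb, a platelet-derived growth factor chain of endothelium, averaged 82.1 ± 36.5 CPM among CRE and 26.5 ± 7.18 CPM among CS7KO hearts (log2 -1.56, SE 0.34, edgeR adjusted p = 0.258, DESeq2 adjusted p = 0.00343). Nt5e, the ectonucleotidase CD73, was at 1.52 (SE 0.39) and Vldlr, a lipoprotein receptor, at 1.26 (SE 0.41) on the log2 scale. The groups of these 3 genes, named for their small p, did not overlap. That held for 4 of the 38 tested genes of the list and for 10.3% of all tested genes.

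Glycolytic HIF targets lay mostly higher, with 18 of 20 above 0, a median log2 fold change of 0.66, no pass in edgeR and 7 unadjusted p under 0.05. Their values ran from -3.17 to 1.32. Gapdh, named for its extreme value, gave the -3.17 (SE 1.67, edgeR adjusted p = 0.464). It had 725, 9.16, 230.2 and 11.6 CPM in CRE hearts 1, 2, 3 and 5. CS7KO hearts 1 to 4 had 8.81, 9.78, 107 and 9.07 CPM, so CRE 2 and CRE 5 lay near CS7KO 1, 2 and 4. DESeq2 called Hk1, Pgam1 and Pdk1 (log2 1.27, 1.12 and 1.32). Over all tested genes 51.9% were higher and 12.6% had such a p. The median of the list was 0.35 within males and 1.24 within females. It was 0.30 without CRE 3 and CRE 5, the libraries in which the list was lowest. That fit again reads genotype from the males alone, so its nearness to the male median is no separate result. Cardiomyocyte markers, also lowest in CRE 3 and CRE 5, had a median of 0.67 (-0.098 within males and 1.05 within females), and their part in the glycolytic values was not tested.

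The receptors and relatives of the described genes gave no pass in edgeR either, with an unadjusted p under 0.05 for 3 of 8 VEGF, 2 of 6 adrenomedullin and 1 of 5 paralog genes, and a DESeq2 call for 1, 0 and 0 of them, against 12.6% and 4.1% of all genes. Of 8 other VEGF ligands and receptors 7 were lower (median -0.47), with Nrp1, a VEGF co-receptor, at 129 ± 52.1 CPM among CRE and 57.1 ± 4.97 CPM among CS7KO hearts (log2 -1.14, SE 0.29, edgeR adjusted p = 0.280, DESeq2 adjusted p = 0.0187), Nrp2 at -0.78 (SE 0.30), the main receptor Kdr at -1.03 (SE 0.41) and the ligand Vegfc at -0.51 (SE 0.35). Kdr is also 1 of the 12 endothelial markers above, as is Flt1, and 11 of those 12 markers were lower, with a median of -0.93. In the adrenomedullin system 2 of 6 tested genes were higher and 4 lower (median -0.37). Ramp2, the co-receptor of the adrenomedullin receptor, was at -0.99 (SE 0.37), the receptor Calcrl at -0.69 (SE 0.32), the scavenger receptor Ackr3 at 0.29 (SE 0.29) and Pam, the enzyme that amidates the peptide, at 1.23 (SE 0.47) on the log2 scale. The part of the endothelial markers in the VEGF and adrenomedullin receptor values was not tested. Without CRE 3 and CRE 5, with genotype read from the males alone, the medians were -0.28 for the VEGF and -0.059 for the adrenomedullin list. Among paralogs, Ndrg2 was at 0.93 (SE 0.38), Ndrg4 at 0.61 (SE 0.33), Ndrg3 at -0.26 (SE 0.23) and Jmjd1c at 0.40 (SE 0.43).

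**Figure D5:**
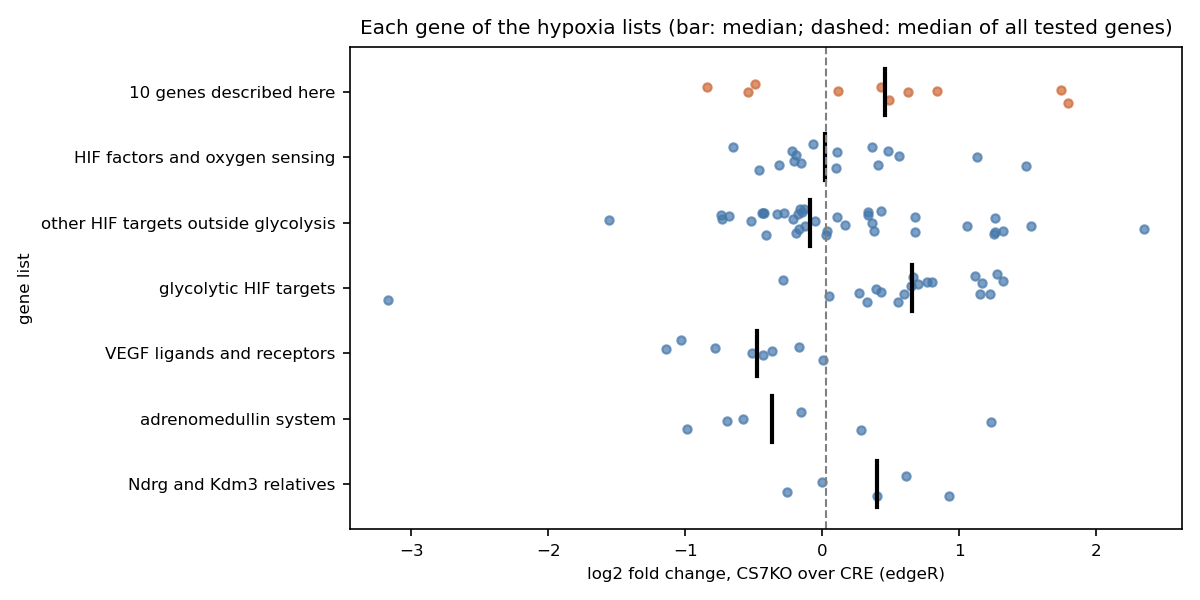
Log2 fold change of CS7KO over CRE (x axis) for every tested gene of the 10 described and of 6 related lists (y axis); bars are list medians and the dashed line the median of all tested genes (0.029). Glycolytic targets have a median of 0.66 and VEGF ligands and receptors one of -0.47.

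The genes whose log2 CPM followed each of the 10 most closely over the 8 libraries were found among 12488 protein-coding genes that averaged 1 CPM or more, leaving aside Gm-number and Rik symbols, and library make-up enters all of these values. Epas1 was closest to Cd2ap (Pearson r = 0.996), Vegfb to Gorasp1 (0.995), Hif1a to Arl2bp (0.99), Egln1 to the muscle ubiquitin ligase gene Trim63 (0.989) and Kdm3a to Mgat4a (0.987). Egln3 was closest to Krt80 and Adm to Ubxn10 (0.972 each), Ankrd37 to the alpha globin gene Hba-a2 (0.968), Vegfa to Ppp1r13l (0.955) and Ndrg1 to Timp4 (0.948). Each r is the highest among 12488 genes over only 8 libraries, and the r that such a choice gives by chance was not examined.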

How the data were processed

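RNA from whole mouse hearts was extracted with Trizol and its polyadenylated part sequenced on an Illumina instrument, per the labels' protocols. Values are raw counts of reads by gene, as deposited. Per the submitters' processing notes the tools were HTSeq 0.6.1, TopHat2 2.0, CASAVA and Cufflinks 2.1.1, on GRCm38.p6 or mm10, with no role given; strand and the treatment of reads that match several genes are not given in the sources used here. Gene coordinates and lengths (other values of the deposited table, per the file headers) follow another annotation than GENCODE M21 of GRCm38, with which 2.83% of 52073 genes agree in coordinates (0 of the 10), so promoter coordinates come from RefSeq alone.

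Genes were filtered with filterByExpr (minimum count 10, minimum total 15), scaled by TMM and tested in edgeR 4.0.16 (R 4.3.3) with a robust quasi-likelihood model of genotype and labelled sex. Benjamini-Hochberg adjustment ran over all 16002 genes, with 0.05 as threshold. Fold changes are CS7KO over CRE. Differences between sexes came from a model of 4 groups of 2 libraries. The series design calls the samples independent, and no 2 replicates agreed within sampling noise. A gene at 0 could reach 3 counts, or 0.0643 to 0.363 CPM in these libraries (counting error alone). Tests were run on simulated counts. Alternatives were limma-voom (limma 3.58.1), DESeq2 1.42.0, other size factors, other filters, no term for sex, a replicate block, removal of mitochondrial or the 10 most counted genes, and libraries left out. Near-identical copies were sought with blastn 2.17.0 (90% identity over 100 bases) in M21 transcripts, where Hif1a, Ndrg1 and Ankrd37 matched only genes that overlap them, or in 1 case (Gm49321) another annotated gene.

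The 10 genes and the lists were chosen with earlier results of these data known. All 10 are named, and from each list up to 4 genes that passed or, where fewer than 2 did, the 4 with the smallest p, besides Smad7, overlapping genes and the closest gene of each; 1 gene that the rule names is not reported here.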

Additional observations from a re-analysis of the deposited data

Results flagged for a closer look

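Among 20 groups of 4 libraries, 10 genes in each genotype, 2 had a library that stood far from the other 3. Both were CS7KO 3. For Vegfa the gap between CS7KO 3 (379 CPM) and the next CS7KO library took 0.952 of the group's range, and for Adm (37.8 CPM against 11 CPM) it took 0.847, above Dixon's 95% critical value. Chance alone gives such a gap in about 1 of 20 groups if the values are normally distributed. The rule was applied to CPM, and the gaps were not examined on the log2 scale. CS7KO 3 also had the most counts of all libraries (40181492).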

How the results depend on the processing

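Over 21 other settings, 199 of 210 log2 fold changes of the 10 genes kept their direction and their side of the threshold. The count of the 10 that passed stayed at 0 except for 2 with DESeq2 (Egln1 and Egln3, where 503 of all genes passed) and 2 with no filter on low counts (Egln3 and Adm, where 338 did). With no filter 1 of the 10, Egln3, also passed the test of the difference between sexes. The count of all genes that passed, 6 here, was 16 without CRE 1 and CRE 5, 3 without CRE 3 and CRE 5, 3 within males and 3 within females, and ran from 3 (without CS7KO 3) to 14 (without CRE 1) when single libraries were left out. Kdm3a ran from -0.20 (without CS7KO 1) to 0.43 (without CRE 5) with single libraries left out. It was -0.15 without CRE 1, -0.036 with no term for sex and -0.52 within females. Vegfb turned to -0.13 without CRE 3 and CRE 5 and -0.073 within males, and Ankrd37 to 0.10 without CRE 1 and CRE 5. The cause was not tested. The fits without CRE 3 and CRE 5 and within males both read genotype from the male libraries alone, so their likeness is no separate support. Numbers 1 to 3 occur in both genotypes, but the numbers were not taken to pair the samples, since only number 3 had same-numbered libraries whose deviations correlated above 0.1 (r = 0.0424, -0.0877 and 0.352, with 3 of 6 closest to their own number). With the replicate block 2 genes passed and 0 of the 10. With no filter the median of all genes was 0.565, against 0.029. Depth limits Adm most, with 13 counts in CRE 1.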

Other observations

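The order seen within CS7KO was met in other lists too, and was not particular to HIF targets. CS7KO 1 and CS7KO 3 were the highest pair of their group for 25 of 38 tested HIF targets outside glycolysis (65.8%), 11 of 20 glycolytic targets (55%) and 8 of 16 partners and regulators (50%), against 27.5% of all tested genes. The share was 91.7% of endothelial, 90% of fibroblast and 83.3% of erythroid markers. It was 16.7% of cardiomyocyte, 20% of macrophage and 40% of smooth muscle and pericyte markers. Lox, the collagen cross-linking enzyme, named here with its values known, had 258, 17.8, 157 and 13.0 CPM in CS7KO 1 to 4 and 58.8, 74.7, 40.7 and 20.6 CPM in CRE 1, 2, 3 and 5, so that CS7KO held both its highest and its lowest libraries. Hmox1, heme oxygenase, also singled out, had 53.5, 8.07, 41.3 and 10.1 CPM in CS7KO 1 to 4 and 10.2 to 17.1 CPM in CRE. Neither gene passed (edgeR adjusted p = 0.564 and 0.478).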
